A study of Homo sapiens with 10 samples.

Results

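JUN sites were compared before and after transformation of MCF10A-ER-Src cells, a non-tumorigenic human breast epithelial line that carries the Src oncoprotein fused to the hormone-binding part of the estrogen receptor, so that 4-hydroxy-tamoxifen switches Src on and transforms the cells. The members are all peaks of the JUN ChIP-seq lists on chromosomes 1 to 22 and X, 81444 in non-transformed and 127335 in transformed cells, of 879550 sites in the 10 lists of the series. A site of one state was matched to the other state when the summits, the positions of highest read coverage, lay within 300 bp. Matched sites are called kept, unmatched sites of non-transformed cells lost, and unmatched sites of transformed cells gained. These words describe presence in the peak lists and not a tested change.

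The series covers 5 proteins (FOS, JUN, JUNB, NFKB1 and STAT3) with 1 library in each state. Per the labels, transformed cells had received 1 µM 4-hydroxy-tamoxifen for 12 h, and both groups are the same ER-Src line. The names written inside the lists give 36 h for the ethanol-grown and 12 h for the tamoxifen-treated JUN library, so time in culture and transformation cannot be told apart. No input library was used for peak calling, and neither state has a replicate, so no difference between states has a test and the 95% intervals below cover only the sampling of sites within a list.

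JUN is a leucine zipper protein of the AP-1 family. It binds DNA as a dimer with itself, with relatives such as JUNB, or with FOS, which needs a JUN protein as partner to bind DNA. AP-1 dimers act downstream of growth factor, stress and Src signalling, and JUN is a potent activator of transcription, whereas JUNB is often a weaker one. STAT3 and NFKB1, a subunit of NF-κB, are transcription factors of inflammatory signalling.

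Most JUN sites of non-transformed cells were still listed after transformation, and a large share of the sites of transformed cells was not listed before. Of the 81444 sites, 64322 (79.0%, Wilson 95% interval 78.7 to 79.3) had a JUN summit within 300 bp in transformed cells and 17122 were lost (21.0% of the list). Of the 127335 sites of transformed cells, 62713 were gained, which is 49.3% of that list (interval 49.0 to 49.5). When the longer list was cut to its 81444 most significant sites, 27708 were gained and 27071 lost. Lists of equal length give nearly equal numbers by construction, so this does not test the excess of gained over lost sites. Sites whose only match lay below the cut were then counted as lost. The JUN library of transformed cells had 1.16 times as many filtered tags as the other (18454386 against 15852999), and filtered means that 1 read was kept per position. The redundant share of reads was 0.23 in non-transformed and 0.13 in transformed cells.

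Gained and lost sites were weak in comparison with kept ones. JUN strength is given as the pileup, that is, how many reads cover the summit once extended to fragment length, divided by the filtered tags of the library and multiplied by 1000000 (RPM below). The fragment length was 129 bp in the non-transformed and 120 bp in the transformed JUN library. It differed between states for the other proteins too, and RPM does not correct for it. In transformed cells, the median was 1.03 RPM at kept sites and 0.54 RPM at gained sites. In non-transformed cells, the median was 0.76 RPM at kept and 0.50 RPM at lost sites. Class and pileup come from the same lists, so these levels are a description.

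The weakest listed sites held 5 reads in either library, and the gained class lay close to that limit. In the gained class, 27568 sites (44.0%) were under 0.5 RPM, and 29236 (46.6%) were between 0.5 and 1 RPM. Another 5698 gained sites (9.09%) were between 1 and 2 RPM, and 211 (0.336%) reached 2 RPM. In the lost class the corresponding numbers were 6584, 10186, 342 and 10 sites. Thus 5909 gained and 352 lost sites had at least 1 RPM, a level that corresponds to 15.9 reads in the library of non-transformed cells. At most 7 reads lay over the summit of 6584 lost (38.5%) and 10001 gained sites (15.9%), and a −log10 q-value under 2 was given to 262 lost and 300 gained sites.

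**Figure D1:**
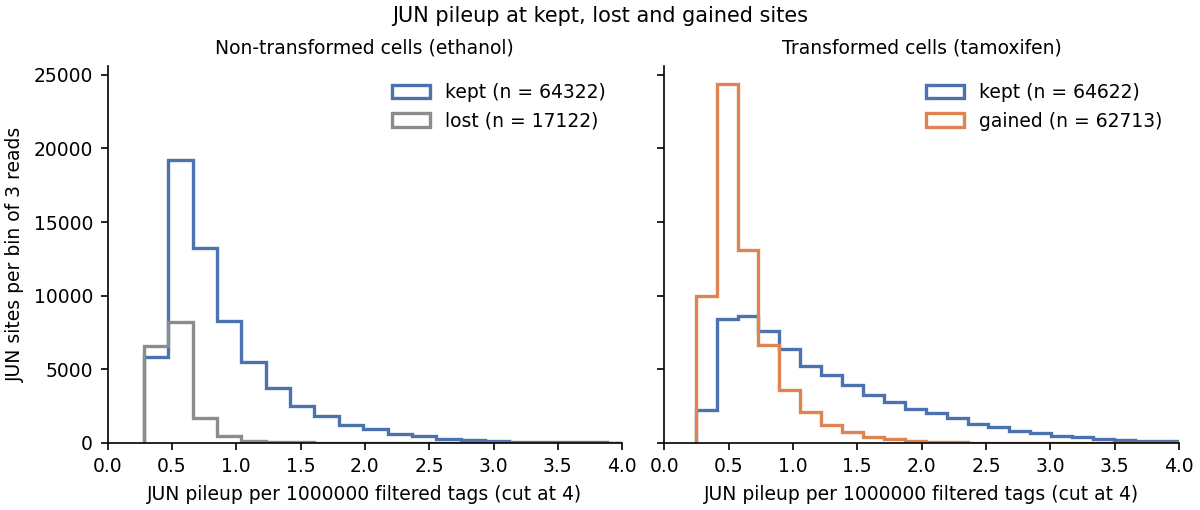
Number of JUN sites (y axis, bins of 3 reads) by pileup in RPM (x axis, cut at 4) in non-transformed cells (left, kept and lost sites) and transformed cells (right, kept and gained sites). Lost and gained sites are concentrated near the lowest listed levels, with medians of 0.50 and 0.54 RPM, while kept sites of transformed cells extend to higher levels, with a median of 1.03.

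The matching distance divided the sites at a point where few summits lay. Of the sites of transformed cells, 59394 had a summit of the other state within 100 bp, 1675 had one at 201 to 300 bp and 1726 at 301 to 400 bp. Some unmatched summits belonged to wide peaks that were listed in both states: 405 gained sites (0.646%) and 680 lost sites (3.97%) overlapped a whole JUN peak of the other state.

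Kept JUN sites had more reads after transformation. Their summits lie within 300 bp of each other by definition, and a site that moved further would count as lost and gained. The distances below are therefore a description and do not show that sites stayed in place. In the 63434 pairs of mutually nearest summits, the median distance was 23 bp, and 79.2% of the pairs lay within 50 bp. In the 2615 pairs with at least 2 RPM in both states the median distance was 13 bp. The median pileup was 0.76 RPM in non-transformed and 1.03 RPM in transformed cells. The median log2 difference, transformed minus non-transformed, was 0.37, a factor of 1.29, and 74.1% of pairs were higher in transformed cells.

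Differences of 2-fold or more were mostly in one direction over all pairs, and they were rare at the highest starting levels. The pileup in RPM was at least 2-fold higher in transformed cells at 9401 pairs (14.8% of all pairs) and at least 2-fold lower at 547 pairs (0.862%). The difference depended on the starting level. The median log2 difference was 0.56 for 5484 pairs under 0.5 RPM in non-transformed cells, 0.37 for 17086 pairs between 1 and 2, and 0.14 for 365 pairs at 3 or more. The share of pairs at least 2-fold higher was 27.8% under 0.5 RPM, 17.5% between 0.5 and 1, 7.19% between 1 and 2, 0.277% between 2 and 3 and 0% at 3 or more, and the share at least 2-fold lower was 0%, 0.537%, 1.81%, 1.19% and 1.1%. From 2 RPM upward, 2-fold differences were rare in either direction, with more of them towards lower JUN, and the median remained above 0. The bins are set by the value from which the difference is taken. High starting values therefore favour falls and low ones favour rises, so the direction at the strongest sites cannot be read from these bins. A weak site that falls by 2-fold drops below the listing limit and leaves the pairs, so at low starting levels the 2 directions are not counted on equal terms.

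The other AP-1 proteins, measured in the same way, had medians slightly below 0 in RPM, and these signs depended on the scaling. At 98390 kept FOS pairs the median log2 difference was -0.076, with 8.55% of pairs at least 2-fold higher and 6.00% at least 2-fold lower. At 55251 kept JUNB pairs it was -0.053, with 7.81% higher and 7.05% lower. Without scaling by depth, the medians were 0.58 for JUN, 0.17 for FOS and 0.73 for JUNB, and scaled by the tags before the duplicate filter they were 0.55, -0.12 and 0.41. The median of JUN was thus above that of FOS under each scaling, whereas it was below that of JUNB without scaling. The kept sites of STAT3 and NFKB1 had medians of 0.75 and 0.036 in RPM. The difference between proteins was not tested, since each protein has 1 library in each state.

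**Figure D2:**
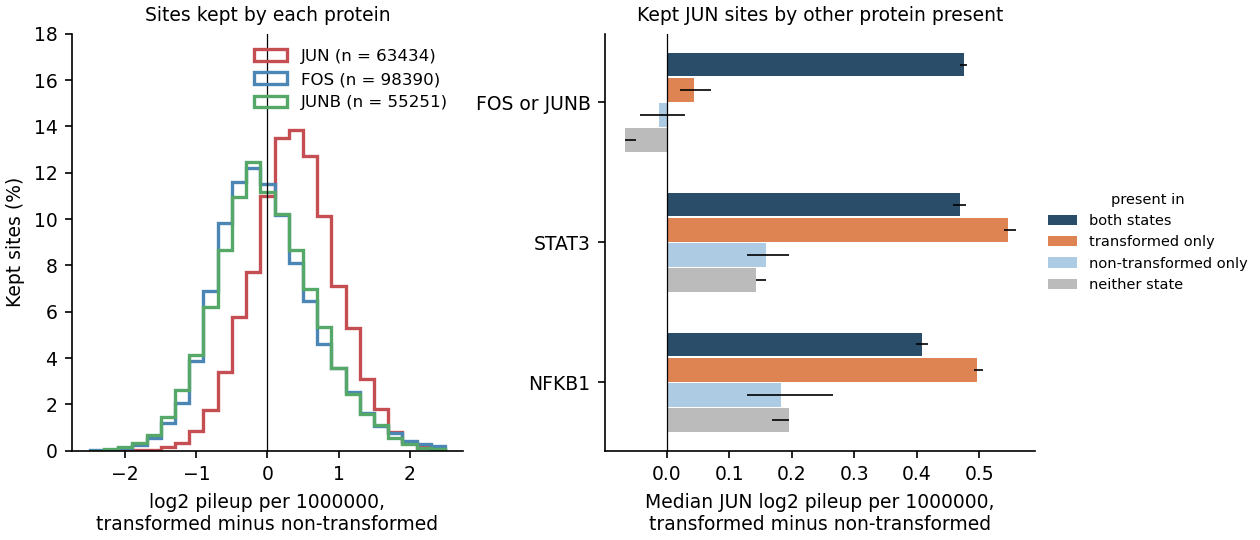
Left, distribution of the log2 difference in pileup in RPM (x axis, transformed minus non-transformed) over the sites kept by JUN, FOS and JUNB, in percent of kept sites (y axis); JUN is centred at 0.37, FOS at -0.076 and JUNB at -0.053, which become 0.58, 0.17 and 0.73 without scaling by depth. Right, median of the JUN difference (x axis, error bars 95% order-statistic interval) at kept JUN sites grouped by the states in which FOS or JUNB, STAT3 or NFKB1 was present; pairs with FOS or JUNB in both states had 0.48 and pairs with neither in either state had -0.067.

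The JUN difference at kept sites was larger where FOS or JUNB was listed in both states. Where they were listed in transformed cells only, the median log2 difference was 0.044 (4443 pairs). Where they were listed in non-transformed cells only, it was -0.013 (2053 pairs). At 50989 pairs (80.4%) with FOS or JUNB in both states, the JUN medians were 0.82 RPM before and 1.25 RPM after transformation, with a median log2 difference of 0.48 (interval 0.47 to 0.48) and 17.8% of pairs at least 2-fold higher. At 5949 pairs (9.38%) with neither protein in either state, the medians were 0.57 and 0.60 RPM, the median log2 difference was -0.067 (interval -0.067 to -0.049), and 1.43% were at least 2-fold higher. The sign at the latter sites depended on the scaling: it was negative in RPM and positive, 0.15, without scaling by depth. Pairs were also grouped by starting level, which is itself part of the difference. Groups of unlike overall level can differ within a bin for this reason alone, so the bins are no control for level. Between 0.5 and 1 RPM in non-transformed cells, the median log2 difference was 0.52 at 28677 pairs with FOS or JUNB in both states and -0.082 at 4539 pairs without them. Between 1 and 2 RPM it was 0.41 at 15893 pairs and -0.51 at 436 pairs, respectively.

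JUN differences were also larger at kept sites where STAT3 or NFKB1 was listed after transformation. The median JUN log2 difference was 0.55 at 16913 pairs with STAT3 in transformed cells only, 0.47 at 23105 pairs with STAT3 in both states and 0.14 at 19709 pairs without it. For NFKB1 the medians were 0.50 at 31910 pairs with the protein in transformed cells only, 0.41 at 8975 pairs with it in both states and 0.20 at 21998 pairs without it. With the protein in non-transformed cells only, the medians were 0.16 for STAT3 (3707 pairs) and 0.18 for NFKB1 (551 pairs). The share of pairs at least 2-fold higher in JUN was 22.8% and 19.5% in the groups with new STAT3 and new NFKB1, against 14.8% over all pairs. The groups differed in starting level: the JUN median in non-transformed cells was 0.76 RPM with STAT3 in transformed cells only, 1.01 RPM with STAT3 in both states and 0.63 RPM without it. Between 0.5 and 1 RPM in non-transformed cells the medians were 0.60, 0.59 and 0.10 for these groups, and for NFKB1 0.57, 0.57 and 0.16. Within this bin, STAT3 or NFKB1 in transformed cells only and in both states went with nearly the same JUN difference. Sites with the protein in neither state had a smaller one. The starting level is part of the difference, so this bin is no control for level either.

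Seen from the JUN side, nearly all of the 9401 pairs with at least 2-fold higher JUN had another AP-1 protein. FOS or JUNB was present in one or both states at 9316 of them (99.1%), compared with 90.6% of all pairs. JUNB was present in transformed cells at 95.2% of these pairs and 73.2% of all pairs, and STAT3 at 79.9% and 63.1%. The 547 pairs with at least 2-fold lower JUN had a different composition, with FOS or JUNB in one or both states at 67.1% and JUNB in transformed cells at 31.1%.

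FOS had smaller differences than JUN at the sites that they shared, and for JUNB this depended on the scaling. At 49451 kept JUN pairs with FOS in both states, the median log2 difference was 0.48 for JUN and -0.17 for FOS, and the JUN difference exceeded the FOS difference at 78.7% of pairs. At 37579 pairs with JUNB in both states, the medians were 0.55 for JUN and -0.016 for JUNB, and the JUN difference was the larger at 78.2%. Without scaling by depth, the latter medians were 0.77 for JUN and 0.76 for JUNB, with the JUN difference the larger at 49.4% of pairs, whereas for FOS the share was 77.5%. Any log2 difference of JUNB in RPM is 0.78 lower than without scaling, and any of FOS is 0.25 lower. Across these sites, which share the same libraries and are not independent replicates, Pearson's r between the differences was 0.19 for JUN with FOS and 0.34 for JUN with JUNB. At the 8941 of these pairs with at least 2-fold higher JUN, FOS had a median log2 difference of 0.066, and 10.8% were at least 2-fold higher in FOS. At the 7648 such pairs for JUNB, the median JUNB difference was 0.35, and 18.1% were at least 2-fold higher in JUNB. Over all kept JUN pairs with the partner in both states, measured from the JUN summit of non-transformed cells, these shares were 5.69% for FOS and 8.01% for JUNB.

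Many gained JUN sites already carried another AP-1 protein in non-transformed cells. Of the 62713 gained sites, 35295 (56.3%, interval 55.9 to 56.7) had a FOS or JUNB summit within 300 bp before transformation. FOS and JUNB were both present at 14564 sites (23.2%), FOS without JUNB at 18973 (30.3%), JUNB without FOS at 1758 (2.80%), and neither at 27418 (43.7%). Of the kept sites of the transformed list, 83.5% had FOS or JUNB before transformation, and of the lost sites 21.9%. The JUNB list of non-transformed cells came from 9178601 filtered tags and the FOS list from 18619521, so the FOS and JUNB shares are not on one depth. The share of gained sites with FOS or JUNB was 40.4% when the FOS list was cut to the length of the JUNB list. With both JUN lists cut to at least 2 RPM it was 99.5%, over 7630 unmatched sites. Most of these are kept sites in the full lists, where 211 gained and 10034 kept sites of transformed cells reached 2 RPM.

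**Figure D3:**
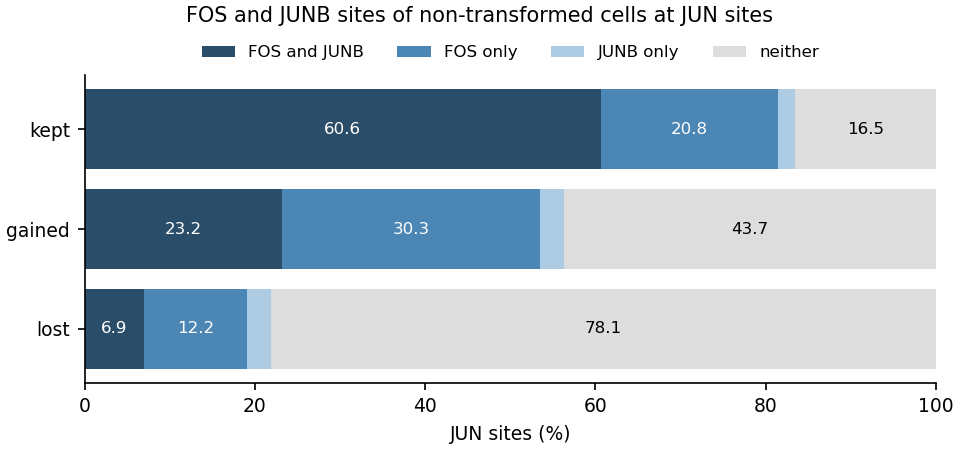
Percent of kept, gained and lost JUN sites (x axis) with FOS and JUNB, FOS only, JUNB only or neither in the lists of non-transformed cells (colours). Neither protein was listed at 16.5% of kept, 43.7% of gained and 78.1% of lost sites.

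The stronger a gained JUN site was, the more often FOS or JUNB preceded it. The share was 38.3% of gained sites under 0.5 RPM, 66.0% between 0.5 and 1, 91.5% between 1 and 2, and 98.1% (207 of 211) at 2 or more. Kept sites had 54.9%, 73.8%, 95.7% and 99.5% at the same levels in transformed cells. Lost sites followed another course with their level in non-transformed cells, with 16.3%, 25.2%, 33.0% and, for 4 of 10 sites, 40.0% (interval 16.8 to 68.7). Thus gained and lost sites of like JUN level had FOS or JUNB in non-transformed cells to a different extent.

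**Figure D4:**
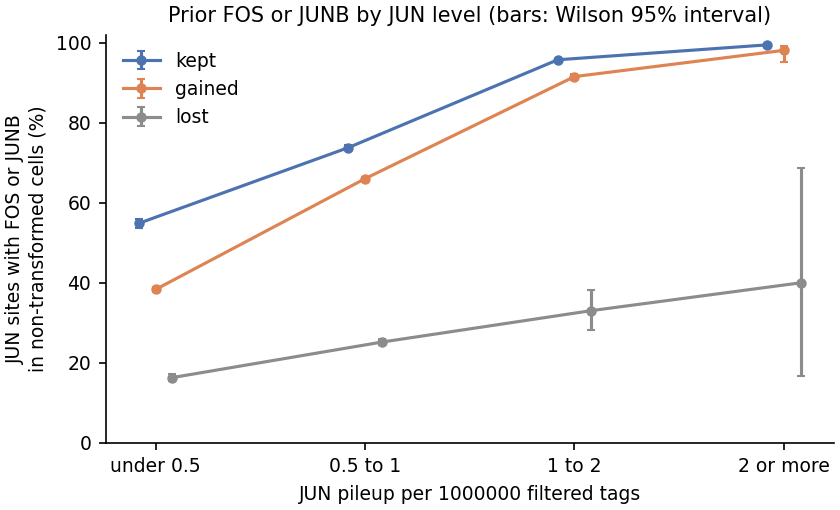
Percent of JUN sites with FOS or JUNB in non-transformed cells (y axis) by JUN pileup in RPM (x axis; transformed cells for kept and gained, non-transformed cells for lost sites), with Wilson 95% intervals as error bars. Gained sites go from 38.3% to 98.1%, below kept sites at each level, and lost sites from 16.3% to 40.0%.

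At gained sites with prior FOS, the FOS summit lay at a median of 22 bp from the later JUN summit. The prior FOS level there was 0.81 RPM at the median of 33537 sites, close to the median of the whole FOS list (0.86) and lower than at kept JUN pairs (1.72). After transformation FOS remained listed at 30317 of these gained sites, where its median log2 difference was 0.17. JUNB remained at 13724 of 16322 gained sites, with a median difference of -0.042. Both differences are in RPM, and the sign of JUNB turns without scaling by depth. FOS appeared together with JUN at a further 13335 gained sites and JUNB at 17893, and the JUNB library of transformed cells had 1.72 times as many filtered tags as that of non-transformed cells.

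From the FOS side, JUN was listed at 43.8% of the 119754 FOS sites of non-transformed cells in both states. JUN was listed only after transformation at 28.0% of them, only before at 2.78% and in neither state at 25.5%. The median FOS level of these groups was 1.72, 0.81, 0.59 and 0.54 RPM, so the FOS sites that gained JUN stood between those that had it already and those that never had it. Of the 75249 JUNB sites of non-transformed cells, JUN was listed in both states at 53.8%, only after transformation at 21.5% and only before at 2.28%.

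The prior presence of another AP-1 protein was also counted at gained FOS and gained JUNB sites. Of 45249 gained JUNB sites, 57.3% had FOS or JUN before transformation, near the 56.3% of gained JUN sites. Of 64646 gained FOS sites, 15.3% had JUN or JUNB. The FOS lists are the longest of the series, with a median of 0.45 RPM at gained FOS sites, and the prior lists set against them (JUN, 81444 and JUNB, 75249 sites) are shorter than the FOS list set against JUN (119754), so list length and protein cannot be told apart here.

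The 27418 gained JUN sites without prior AP-1 were of several kinds. STAT3 or NFKB1 was listed before transformation at 2115 of them, and none of the 4 other proteins at 25303, which is 40.3% of all gained sites. The median JUN level was 0.65 RPM at gained sites with prior FOS or JUNB and 0.49 RPM in both other groups. In transformed cells, FOS or JUNB stood at 11536 (45.6%) of the 25303 sites and all 4 other proteins at 1123 (4.44%). None of the other proteins was listed at 12226 of them (48.3%), where the median JUN level was 0.43 RPM. By contrast, of the 35295 sites with prior FOS or JUNB, 91.7% had FOS or JUNB in transformed cells and 16.2% had all 4 other proteins.

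STAT3 and NFKB1 were listed at more gained JUN sites after than before transformation. STAT3 was present at 10.23% of gained sites before and 30.9% after transformation, and at 42.1% and 62.9% of kept sites. NFKB1 was present at 2.85% of gained sites before and 24.6% after, and at 14.9% and 64.3% of kept sites. Lost sites had STAT3 at 7.59% and 10.4% and NFKB1 at 1.93% and 11.0%. Over all JUN sites of transformed cells, STAT3 went from 26.4% to 47.1% and NFKB1 from 8.97% to 44.8%. The whole lists grew from 42810 to 80265 sites for STAT3 and from 13252 to 73822 for NFKB1. List length and state cannot be told apart here. The NFKB1 libraries held 4837474 filtered tags before and 9674390 after transformation, a difference that cannot be told apart from the state. The STAT3 library of transformed cells was the shallower one (8967267 against 10929003). All 4 other proteins were present in transformed cells at 45.7% of kept and 11.4% of gained JUN sites.

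**Figure D5:**
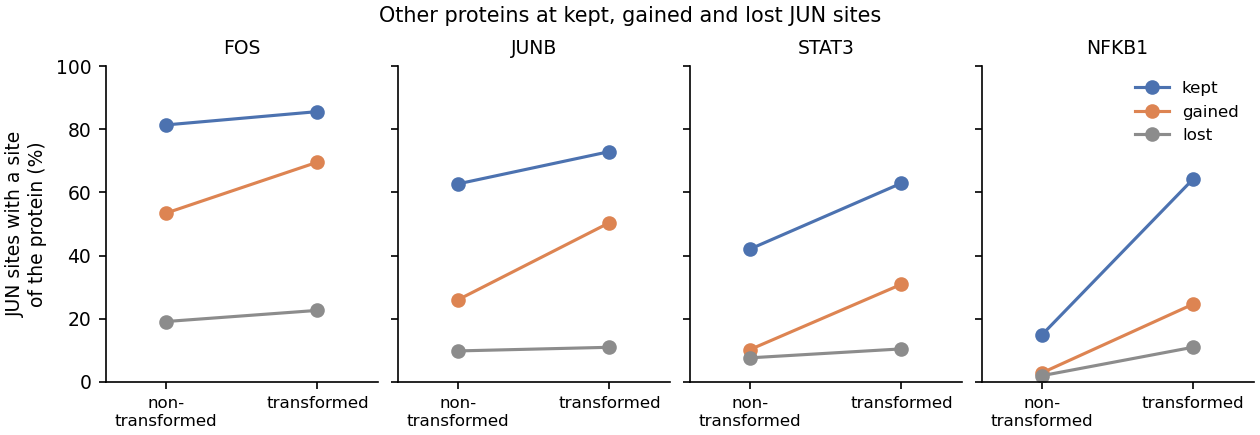
Percent of kept, gained and lost JUN sites (y axis) with a site of FOS, JUNB, STAT3 or NFKB1 within 300 bp in non-transformed and transformed cells (x axis; 1 library per point). Gained sites lie between kept and lost sites for each protein, and NFKB1 at kept sites goes from 14.9% to 64.3%.

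Lost JUN sites were mostly listed for JUN alone, more often than kept sites of like level. None of the 4 other proteins was listed at 12661 of the 17122 lost sites (73.9%) in non-transformed cells, and at 10598 (61.9%) none was listed in either state. Over all JUN sites of non-transformed cells the share without the other proteins was 26%, and over kept sites 13.3%. Weak sites were more often without them: under 0.5 RPM the share was 80.6% of lost and 24.3% of kept sites, between 0.5 and 1 RPM 70.1% and 16.7%, and between 1 and 2 RPM 61.4% and 3.92%. FOS or JUNB was listed in both states at 2654 lost sites (15.5%), only before transformation at 1102 (6.44%) and only after it at 1665 (9.72%). Thus most lost JUN sites with FOS or JUNB beforehand still had one of them afterwards, though FOS stayed less often than at kept sites. Measured from the JUN summit of non-transformed cells, FOS remained at 2222 of 3270 lost sites and at 49491 of 51738 kept pairs. The median prior FOS level was 0.64 RPM at the former and 1.72 RPM at the latter. FOS level and JUN class cannot be told apart here. Where FOS was listed in both states at lost sites, its median log2 difference was -0.25 (2222 sites), and that of JUNB was -0.47 (846 sites). Both are in RPM, in which any log2 difference of FOS is 0.25 and any of JUNB 0.78 lower than without scaling. Neither fall is therefore present without scaling by depth.

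Gained and lost sites were scattered among kept ones. The median distance to the nearest kept site was 10545 bp for gained and 10835 bp for lost sites, with 11.0% and 13.7% within 1000 bp and 48.8% and 48.3% within 10000 bp. The gained share of the sites of transformed cells ranged from 42.8% on chromosome 19 to 57.3% on chromosome X, and the lost share of the sites of non-transformed cells from 15.3% on chromosome 20 to 25.1% on chromosome X. The median log2 difference at kept pairs was 0.11 on chromosome 19 and between 0.31 and 0.45 on every other chromosome.

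The strongest individual sites are given with hg19 coordinates, the build named in the labels, and no gene is assigned to them. The strongest gained site, at chr1:208980649-208981395, had 73 JUN reads (3.96 RPM) in transformed cells, and FOS went there from 5.42 to 3.94 and JUNB from 3.38 to 3.94 RPM. It overlapped a JUN peak of non-transformed cells whose summit lay 432 bp away with 2.02 RPM, so JUN was not absent from this region before. The site at chr5:172192315-172194329, 2015 bp wide with 3.20 JUN RPM, was of the same kind, with a summit of 2.21 RPM 965 bp away. Both have a local background of 1.9 times the genome-wide one, as derived from pileup and fold enrichment.

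The other strongly gained sites had no JUN peak of non-transformed cells within 1000 bp. At chr1:201754478-201754832, JUN reached 3.90 RPM, FOS went from 1.5 to 3.94 RPM, STAT3 from 1.01 to 7.81, and JUNB (4.57) and NFKB1 (0.93) were listed in transformed cells only. The local background of this site was 2.18 times the genome-wide one, the highest among the 5 named gained sites. At chr11:28162577-28162928, JUN reached 3.25 RPM, and all 4 other proteins were listed in both states, with JUNB at 1.53 before and 4.64 after, and STAT3 at 0.92 and 3.79. At chr14:81412599-81412838, JUN reached 3.14 RPM, FOS went from 0.75 to 3.44 and JUNB from 2.18 to 5.90, and STAT3 (0.89) and NFKB1 (0.62) were listed only after transformation. All 5 of the strongest gained sites thus had FOS before transformation and all 4 other proteins after it. Prior FOS or JUNB was listed at 207 of the 211 gained sites of 2 RPM or more, so the named sites do not stand out in this.

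Most of the strongest lost sites lay in regions where a JUN peak was listed in both states. Of the 5 strongest, 4 overlapped a JUN peak of transformed cells. At chr6:151178342-151179056, 37 JUN reads (2.33 RPM) in non-transformed cells stood 413 bp from a summit of 2.44 RPM in transformed cells, with FOS at 0.91 before and 0.95 after. At chr1:145397734-145398109 (2.46 RPM) the nearest summit of transformed cells, 393 bp away, had 0.87 RPM. At chr17:38627210-38630165 (2.46 RPM, 2956 bp wide), that summit was 817 bp away with 0.65 RPM, and none of the other proteins was listed within 300 bp of the lost summit. The site without an overlapping JUN peak was chr1:224531373-224531647, with 2.33 JUN RPM and none of the other 4 proteins in either state. The fifth, on chromosome 8, had 2.33 RPM and a summit of transformed cells 388 bp away with 2.60 RPM.

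The strongest kept sites had high JUN in either state. At chr1:144010620-144011334, JUN was 6.12 RPM before and 7.53 RPM after transformation, and JUNB 3.05 and 6.73. At chr3:5036649-5036972, JUN was 6.06 and 6.34 RPM, and FOS 5.91 and 4.08. At chr3:179687254-179687746, JUN was 5.30 and 5.15 RPM, with FOS at 6.88 and 4.08 and JUNB at 6.21 and 6.35. At chr1:181737360-181737718, JUN was 4.92 and 5.37 RPM. The site at chr10:80679797-80680173 differed from these in that JUN was 6.18 and 6.07 RPM and none of the other 4 proteins was listed in either state.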

How the data were processed

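ChIP-seq peak lists of FOS, JUN, JUNB, NFKB1 and STAT3 were read as deposited, with 1 library for each protein and state, grouped by the labels. Per the file headers, the authors called peaks in each library with MACS 2.0.10.20131216, without a control library, from uniquely aligned 36 bp reads, with a q-value cutoff of 0.05, 1 read kept per position and a local background over 1000000 bp. The submitters' processing notes name Bowtie, MACS2 and hg19. The deposited pileup is a signal of extended reads over the summit, the deposited significance is −log10 of the p-value and q-value, and the deposited enrichment over local background is a ratio. The filtered tags of the JUN libraries numbered 15852999 and 18454386.

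Pileups were scaled to 1000000 filtered tags (RPM). Sites were matched by summits within 300 bp, ratios were taken over mutually nearest summits, shares have Wilson intervals, and medians have order-statistic intervals, all at 95% and for counting only. The local background was derived from pileup and fold enrichment, as a multiple of the genome-wide value. Named sites are the 5 with the largest RPM in each class (kept sites by the lower state), at least 1000 bp apart, with positions among the 10 highest of 3 or more lists given separately. The members, lists and rules were chosen with earlier results of these data known. Matching was tested on simulated data. Python 3.11.15, numpy 2.4.6, pandas 2.3.3 and scipy 1.17.1 were used. In the JUN lists 350 and 456 peaks run past chromosome ends of the GRCh38 reference at hand, so motifs, sequences and genes were not analysed here.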

Additional observations from a re-analysis of the deposited data

Results flagged for a closer look

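The median log2 difference in pileup in RPM, transformed minus non-transformed, was above 0 at sites kept by JUN (0.37) and below 0 at sites kept by FOS (-0.076) and JUNB (-0.053). These were flagged because in this scaling the single library pair of JUN had the opposite sign to those of FOS and JUNB, and the difference was not tested. The sign of JUNB turned without scaling (0.73) and when scaled by the tags before the duplicate filter (0.41), and that of FOS turned without scaling (0.17). The medians of STAT3 (0.75) and NFKB1 (0.036) were above 0, that of NFKB1 only slightly (interval 8.3e-05 to 0.064). Their size also depended on the scaling, with 0.47 for STAT3 and 1.04 for NFKB1 without scaling.

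JUN peaks were also listed on chromosome Y and the mitochondrial genome, which entered no comparison. There were 70 such peaks in non-transformed cells (54 on Y and 16 mitochondrial) and 76 in transformed cells (61 and 15). They were flagged as signal outside the chromosomes compared, and no control library was used here.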

How the results depend on the processing

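Of the results recomputed, the numbers of gained and lost JUN sites were within 1.5 times the values given under 6 of 9 alternatives each. With a −log10 q-value of at least 10, 35402 sites were gained and 2375 lost, with JUN pileups of at least 2 RPM 7630 and 290, and with JUN lists of equal length 27708 and 27071. Under these cuts, sites also count as gained or lost when their match lies below the cut. Equal lengths make the numbers nearly equal by construction. The median log2 difference at kept sites (0.37) was positive under all 13 alternatives. It was 0.39 with summits within 100 bp and with a −log10 q-value of at least 10, 0.28 with JUN pileups of at least 2 RPM and also for kept pairs with both pileups at that level, 0.49 with lists of equal length and by fold enrichment, 0.58 without scaling (a shift of 0.22), and 0.55 scaled by tags before the duplicate filter. The share of gained sites with prior FOS or JUNB (56.3%) was 52.8% with summits within 100 bp, 60.3% within 1000 bp, 55.1% by overlap of whole peaks, 69.5% with the q-value limit, 99.5% with JUN pileups of at least 2 RPM, 75% with lists of equal length and, chosen after seeing the data, 40.4% with the FOS list cut to the length of the JUNB list. At kept sites without FOS or JUNB in either state the sign turned: 0.20 with lists of equal length, 0.15 without scaling, 0.11 with unfiltered tags and 0.083 by fold enrichment, the first from fewer sites. The cause was not tested for the other changes. Kept FOS sites (-0.076) turned to 0.17 without scaling and 0.051 by fold enrichment, and kept JUNB sites (-0.053) to 0.73 without scaling, 0.41 with unfiltered tags and 0.34 by fold enrichment, all chosen after seeing the data. With FOS or JUNB in both states the median lay between 0.28 and 0.70. Leaving out sites with a local background over 1.5 times the genome-wide one, also added later, kept all values within these limits. The motif and transcription start alternatives were not run for want of the build. No paired analysis was possible because each protein and state had 1 library.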

Other observations

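Positions among the 10 highest of 4 lists were found at 3 of the strongest kept JUN sites. They lay at chr6:58776497-58779287, chr1:121484052-121485523 and chr1:145114009-145115366, and JUN had 8.83, 8.14 and 5.93 RPM there before and 7.21, 6.18 and 6.01 after transformation. NFKB1 had 19.6, 23.6 and 23.0 RPM at the same positions in non-transformed cells.

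Strong JUN sites were more often in regions of high local background. The background exceeded 1.5 times the genome-wide one at 6.11% of all gained sites and at 33 of the 100 strongest ones. Of these 100 sites 31 were on chromosome 1, and 24 of them were among the 33. Of the 100 strongest kept sites of transformed cells, 47 had such a background and 47 were on chromosome 1, against 7.93% and 10.8% of all kept sites.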
